A study of Mus musculus with 6 samples.

Results

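Blood and lymphatic vessel genes were followed in subcutaneous tumours of H22, a mouse hepatocellular carcinoma line, that were resistant or sensitive to lenvatinib, an oral drug that inhibits several receptor tyrosine kinases, among them the receptors of vascular endothelial growth factor. The 39 genes were a list of names, found by symbol among the 20482 genes of the count table, and all 39 were present. Of these, 33 were grouped as pan-endothelial, 4 (Esm1, Apln, Dll4 and Gja4) mark tip cells or arteries, and 2 (Lyve1 and Pdpn) mark lymphatic vessels. The group of 33 is not pure. It also holds Angpt1, Angpt2 and Mmrn1, described below as genes of mural cells, tip cells and lymphatic endothelium. The receptors of vascular endothelial growth factor were not part of the list.

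The 3 resistant tumours (LR1 to LR3) came from mice injected intraperitoneally with lenvatinib at 100 mg/kg per day, 2 times a week, over 2 cycles, and the 3 sensitive tumours (NR1 to NR3) came from control mice. All 6 tumours grew under the skin of male, genotypically wild-type C57BL/6 mice that were 6 weeks old when the cells were implanted. Labels conflict about dosing: in 1 field no tumour of the 6 counts as treated, and elsewhere both drug and solvent are mentioned for control animals, so the groups were taken from the sample titles. Exposure to the drug and resistance to it cannot be told apart, and the labels name no batch. RNA was taken from whole tumours, in which vessels are host tissue among tumour cells. Fewer endothelial cells and less RNA per endothelial cell cannot be told apart in such samples.

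Total counts per tumour ran from 15995403 to 17545098, and 3 counts corresponded to 0.171 to 0.186 CPM, the count as a share of the library scaled by the trimmed mean of M-values (TMM). Tumour NR2 stood apart by lymphocyte RNA. The summed level of 8 B and plasma cell genes was 13.7 CPM or less in the LR tumours, and 2665 CPM in NR2, beside 11.1 and 20.3 CPM in NR3 and NR1. Skeletal muscle RNA, over 10 genes, summed to 5.47 to 269 CPM in the LR tumours, and to 1345 CPM in NR1. Tumour LR1 held the least fat cell RNA, at 57.3 CPM over 10 genes, against 963 and 1333 CPM in the other LR tumours and 876 to 4055 CPM in the NR tumours.

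Endothelial cells line all vessels and are held together by junctions of VE-cadherin (Cdh5), claudin 5 and PECAM1. Their identity depends on transcription factors of the ETS and SOX families, and their stability on the receptor TIE2 (Tek), which angiopoietin 1 activates and angiopoietin 2 can block. During sprouting, vascular endothelial growth factor induces tip cells, which express Esm1, Apln, Angpt2 and the Notch ligand Dll4. Growth of tumour vessels through this factor is one of the processes that lenvatinib targets. Lymphatic vessels are a separate endothelium, set by the transcription factor PROX1 and marked by the hyaluronan receptor LYVE1 and by podoplanin.

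Resistant tumours carried less RNA of nearly every pan-endothelial gene by fitted value. Of the 4 tip cell or arterial genes, Esm1 and Apln had higher values in all 3 resistant tumours than in any sensitive one, which makes 2 of the 38 tested members, 5.26%, beside 8.41% of all genes. Of the 38 members that could be tested, 35 had a log2 fold change (LR minus NR) below 0, 92.1% of them, where 52.7% of all 14392 tested genes did. The signs of members read in the same 6 tumours are not independent observations. The median was -0.49 over the 38 members, -0.67 over the 32 tested pan-endothelial members and -0.02 over all tested genes. In edgeR's quasi-likelihood test with Benjamini-Hochberg adjustment over all tested genes, 0 members passed an adjusted p of 0.05, as did 0% of all genes, and the smallest adjusted p of a member was 0.51. DESeq2 also called 0 members (smallest adjusted p 0.166), while it called 0.813% of all genes. At an unadjusted p under 0.05, edgeR counted 3 members lower in LR tumours (Cdh5, Eng and Sox7), 7.89% of those tested, beside 5.73% of all genes. It counted 1 member higher (Apln), 2.63% of those tested, beside 4.02% of all genes. These shares stand near the background.

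**Figure D1:**
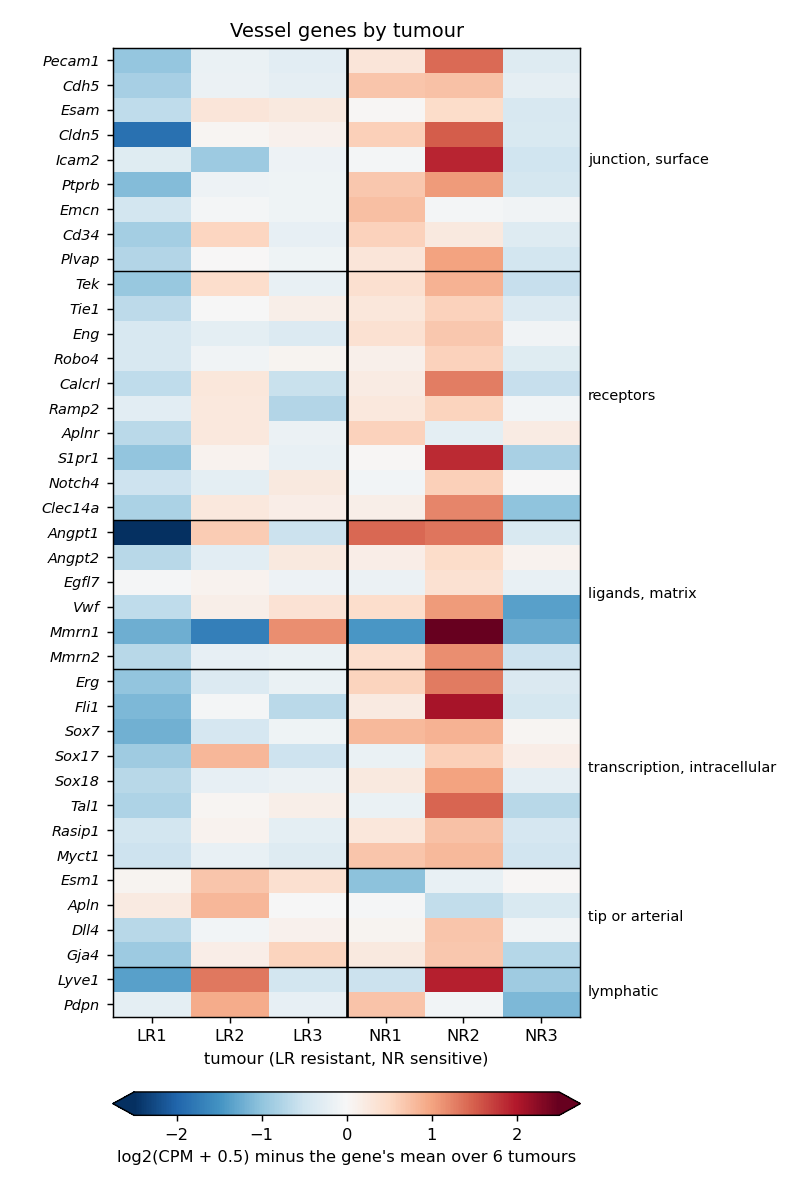
Level of the 39 vessel genes in each tumour, as log2(CPM + 0.5) minus the gene's mean over the 6 tumours, grouped by role. Red is above and blue below the mean, colours are capped at the ends of the scale, and tumour NR2 holds the highest value of 31 genes and tumour LR1 the lowest of 30.

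A pair of tumours held most of the extreme values. Tumour LR1 had the lowest CPM of 30 of the 39 members, beside 24.4% of all tested genes, and NR2 the highest of 31, beside 32.6%. LR2 was highest in 4 members, beside 12.1% of all genes, and NR3 lowest in 4, beside 11.9%. NR2, lowest in 29.7% of all genes, was so in 1 member (Apln). Summed over the 33 pan-endothelial members, the level was 389, 648 and 576 CPM in LR1 to LR3, and 849, 1307 and 517 CPM in NR1 to NR3. The sum in NR3 thus lay within the LR range, and the groups overlapped. Without NR2, 25 of 32 pan-endothelial members remained below 0, with a median log2 fold change of -0.29, and 51.2% of all genes did. The 7 that then stood above 0 were Clec14a, Egfl7, Esam, S1pr1, Sox17, Tal1 and Vwf. Without NR3 the median was -0.94, with 33 of 33 members below 0. The count of members lower at an unadjusted p under 0.05 was 1 of 39 without LR1 and 1 of 38 without NR2 (Eng each time). It was 13 of 39 without NR3. In each of these fits 0 members were higher, so the member counts cover both directions. The count over all genes, in either direction, moved too: it was 631 of 14947 without LR1, 934 of 14664 without NR2 and 2666 of 14939 without NR3, against 1404 of 14392 with 6 tumours. Esam and Egfl7, which stand closest to 0, lay above 0 when counts were scaled by library size alone and on the deposited FPKM, and Esam also under upper quartile scaling. Esam and Sox17 lay above 0 without LR1.

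**Figure D2:**
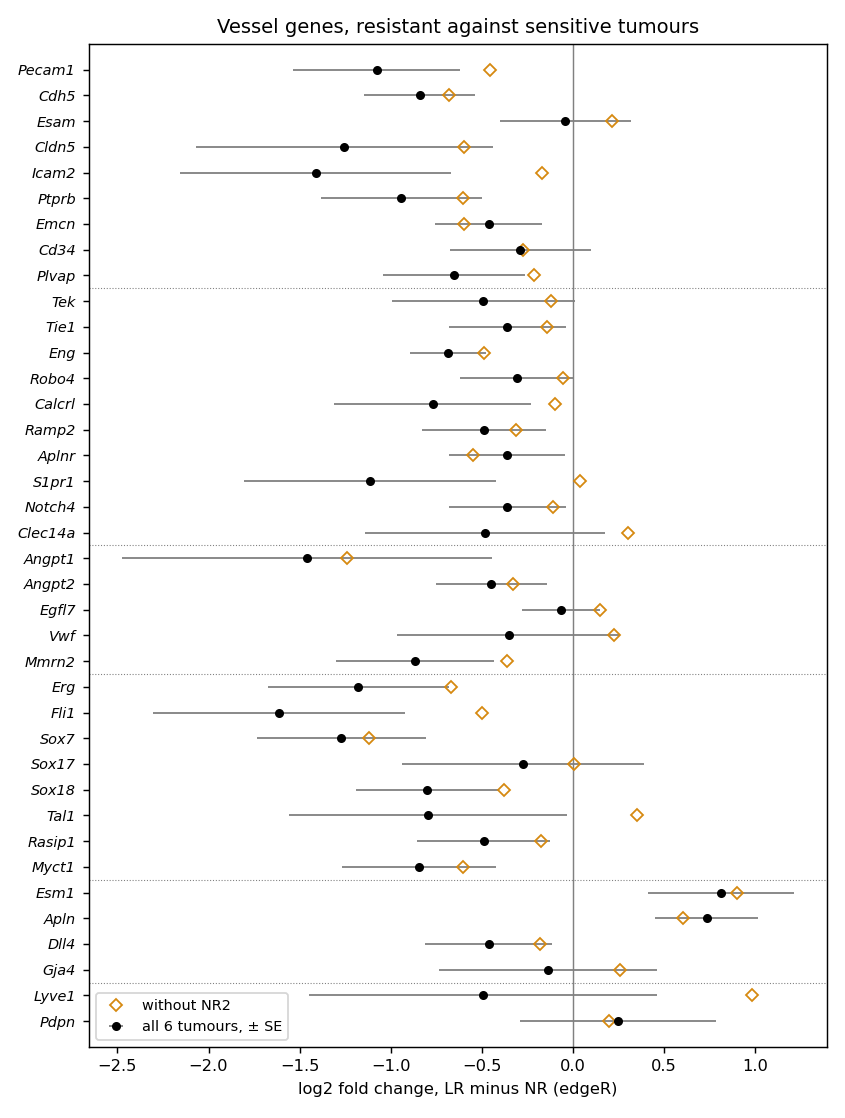
Log2 fold change (LR minus NR) of the 38 tested vessel genes by edgeR, with the standard error as bars and the value without tumour NR2 as open diamonds. All 32 pan-endothelial genes lie left of 0 with 6 tumours and 25 without NR2, while Esm1 and Apln lie right of 0 both times.

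Of the 4 members whose LR and NR values did not overlap, 3 (Eng, Esm1 and Apln) had a promoter in the RefSeq table of build GRCm38.p6, and the 250 bases before the transcription start are shown for these, 5′ to 3′ on the gene's strand. Capitals mark AGGAAG, a core that ETS factors such as ERG and FLI1 bind, or its reverse complement CTTCCT.
Eng: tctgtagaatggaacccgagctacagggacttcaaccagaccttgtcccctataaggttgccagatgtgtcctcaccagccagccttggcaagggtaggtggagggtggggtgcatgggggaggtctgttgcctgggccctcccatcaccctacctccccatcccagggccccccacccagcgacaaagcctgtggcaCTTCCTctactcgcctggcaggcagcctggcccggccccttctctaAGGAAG
Esm1: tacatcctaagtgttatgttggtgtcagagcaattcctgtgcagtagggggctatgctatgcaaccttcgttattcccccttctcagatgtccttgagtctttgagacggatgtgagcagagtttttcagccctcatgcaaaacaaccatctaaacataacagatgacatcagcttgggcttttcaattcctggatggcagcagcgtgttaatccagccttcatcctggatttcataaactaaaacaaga
Apln: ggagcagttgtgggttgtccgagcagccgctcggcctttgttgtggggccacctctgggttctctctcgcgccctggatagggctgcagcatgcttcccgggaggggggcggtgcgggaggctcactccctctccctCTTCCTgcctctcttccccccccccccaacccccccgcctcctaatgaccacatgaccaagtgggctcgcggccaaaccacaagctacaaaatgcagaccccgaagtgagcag
The Eng window (chr2:32646345-32646594 on the plus strand) held the letters 2 times, the Apln window (chrX:48034854-48035103 on the minus strand) once and the Esm1 window (chr13:113209409-113209658 on the plus strand) at 0 places. Windows were found for 21 of the 39 members. AGGAAG, searched on both strands, lay in at least 1 window of 11 of these 21 genes, 52.4%, and in 32.3% of all 27025 genes with a window. The other ETS core searched, CCGGAA, cannot share a place with it on the same strand and was in 0 of the 21 and in 13.6% of all genes. ACAAT, a core of SOX sites, was in 11 of the 21 and in 30.9% of all genes. AGATAA, which factors such as GATA2 bind, was in 3 of the 21 and in 11.4% of all genes. The core of sites for hypoxia-inducible factors, ACGTG, was in 2 and in 18.5%. A box of the letters TATAAA, known from many core promoters, was in 2 and in 14.3%. A match describes letters in this window and not a bound site.

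Among the 9 junction and surface genes, all fitted log2 fold changes were below 0, with a median of -0.84. Cdh5 (chromosome 8, 104101625 to 104144511, GRCm38 in GENCODE M21, as are the positions below), the adhesion molecule of endothelial junctions, was read at 35.7, 57.3 and 54.8 CPM in LR1 to LR3 and at 103, 107 and 54.9 CPM in NR1 to NR3. NR3 lay with the LR tumours, just under LR2, so the groups overlapped. The log2 fold change was -0.84 ± 0.30 (SE), with an unadjusted p of 0.0295 and an adjusted p of 0.51 by edgeR. Pecam1 (chromosome 11, 106654217 to 106750628), an adhesion receptor that platelets and leukocytes carry too, was read at 38.0, 66.6 and 62.1 CPM in the LR tumours and at 92.5, 199 and 59.8 CPM in the NR tumours. Its log2 fold change was -1.08 ± 0.46 with 6 tumours and -0.45 without NR2. Icam2, an adhesion ligand for lymphocytes that lymphocytes express as well, had one of -1.41 ± 0.74 with 6 tumours and -0.17 without NR2, where it stood at 15.3 CPM and at 3.53 CPM or less elsewhere. Claudin 5 (Cldn5), which seals tight junctions, averaged 2.32 ± 1.602 CPM in LR and 5.56 ± 3.74 CPM in NR tumours (SD, n = 3 each). Plvap, which forms the diaphragms of fenestrae, averaged 46.5 ± 12.02 CPM in LR and 73.2 ± 36.0 CPM in NR tumours. Ptprb, the phosphatase VE-PTP that holds TIE2 in check, averaged 21.9 ± 7.55 and 42.1 ± 19.6 CPM in the LR and the NR tumours. Emcn, a sialomucin of capillaries and veins, Cd34, a sialomucin that is also found on progenitor cells and fibroblasts, and the junction gene Esam had log2 fold changes of -0.46, -0.29 and -0.04, each less than 2 SE from 0.

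All 10 receptor genes were below 0 as well, with a median of -0.48 and a range from -1.11 to -0.31. Eng (chromosome 2, 32646595 to 32682669), the co-receptor endoglin of TGF-beta and BMP9 signalling, was read at 52.3, 58.5 and 54.6 CPM in LR1 to LR3 and at 90.3, 111 and 64.7 CPM in NR1 to NR3. Every LR tumour lay below every NR tumour, and the LR tumours hardly varied. Its log2 fold change of -0.69 ± 0.21 had the smallest unadjusted p of the list (0.0141, adjusted p = 0.51, edgeR), and without any 1 of the 6 tumours it ran from -0.86 to -0.49. Macrophages and fibroblasts carry endoglin too. Eng overlaps Fpgs on the opposite strand, and no source used here says whether reads were counted by strand. Fpgs itself had a log2 fold change of 0.14 ± 0.22. In 2 of the 38 tested members, Eng and Sox7, every LR value lay below every NR value, 5.26% of them, beside 7.54% of all genes.

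The angiopoietin receptors differed less. Tek (chromosome 4, 94739289 to 94874976), which encodes TIE2, was read at 5.59, 15.5 and 9.93 CPM in the LR tumours and at 15.1, 21.2 and 7.37 CPM in the NR tumours. Tie1 (chromosome 4, 118471191 to 118490061), its partner receptor, was read at 13.6, 21.6 and 24.1 CPM in the LR tumours and at 26.5, 32.5 and 17.1 CPM in the NR tumours. In both genes NR3 fell within the LR range. The log2 fold changes were -0.49 ± 0.50 and -0.36 ± 0.32. Aplnr, the apelin receptor, averaged 21.6 ± 6.96 CPM in LR and 27.8 ± 7.86 CPM in NR tumours, a log2 fold change of -0.36 ± 0.32. Calcrl and Ramp2, which together form the adrenomedullin receptor, had log2 fold changes of -0.77 ± 0.54 and -0.49 ± 0.34. Those of Robo4, a guidance receptor that stabilises vessels, Notch4, the endothelial Notch receptor, and Clec14a, a surface lectin of tumour endothelium, were -0.31, -0.36 and -0.48. S1pr1, the sphingosine 1-phosphate receptor of endothelium and of circulating lymphocytes, was read at 15.6 to 33.2 CPM in the LR tumours, and at 115 CPM in NR2 and 17.7 and 31.8 CPM in NR3 and NR1. For S1pr1 the log2 fold change was -1.11 ± 0.69 with 6 tumours and 0.04 without NR2.

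Of the 5 tested genes of secreted ligands and matrix, 5 were below 0, with a median of -0.45. Angpt1 (chromosome 15, 42424723 to 42676977), the activating ligand of TIE2, which mural cells and fibroblasts rather than endothelium secrete, was read at 0.24, 5.91 and 2.38 CPM in LR1 to LR3 and at 10.8, 10.0 and 2.68 CPM in NR1 to NR3. LR1 lay near the limit of 3 counts, and NR3 fell within the LR range. Its log2 fold change of -1.46 ± 1.01 was the second largest in size among the members and had the largest SE. Angpt2 (chromosome 8, 18690263 to 18741562), the antagonist ligand that tip cells release, was read at 7.25, 9.85 and 14.3 CPM in the LR tumours and at 13.5, 16.6 and 12.7 CPM in the NR tumours, a log2 fold change of -0.45 ± 0.31. Angpt2 lies within Mcph1, and Cdh5, Angpt1 and Dll4 overlap predicted genes, each on the opposite strand. Other members overlap genes as well, among them Ramp2 with Vps25 and Rasip1 with Izumo1 on the same strand. Egfl7 overlaps Agpat2, and Plvap overlaps Gtpbp3, on the opposite strand. Vwf (chromosome 6, 125546774 to 125686679), the clotting factor stored in endothelium and platelets, was read at 8.38, 14.7 and 17.1 CPM in the LR tumours and at 18.2, 28.4 and 4.86 CPM in the NR tumours. The NR group spanned the whole LR range, and the log2 fold change was -0.35 ± 0.61, or 0.22 without NR2. Mmrn2, a matrix protein that binds CLEC14A, averaged 14.4 ± 2.80 CPM in LR and 26.3 ± 14.6 CPM in NR tumours. Egfl7, a secreted matrix protein whose gene hosts the endothelial microRNA miR-126, averaged 26.1 ± 2.08 CPM in LR and 27.3 ± 6.46 CPM in NR tumours.

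Among the 8 transcription factor and intracellular genes the median log2 fold change was -0.82, and 8 of 8 were below 0. Erg (chromosome 16, 95359169 to 95586593), an ETS factor that keeps endothelium quiescent, was read at 3.45, 5.73 and 6.48 CPM in the LR tumours and at 11.0, 18.9 and 5.598 CPM in the NR tumours. NR3 again lay among the LR tumours, and the log2 fold change was -1.18 ± 0.50 (unadjusted p = 0.0509, adjusted p = 0.51, edgeR). Sox7 (chromosome 14, 63943673 to 63950732), a SOX factor of early vessels, was read at 1.43, 2.81 and 3.63 CPM in LR1 to LR3 and at 7.31, 7.58 and 4.11 CPM in NR1 to NR3. No LR value reached the lowest NR value. The difference was -1.27 ± 0.46 on the log2 scale (unadjusted p = 0.0298, adjusted p = 0.51, edgeR), and -1.12 without NR2. The related Sox18 and Sox17 had log2 fold changes of -0.80 ± 0.39 and -0.28 ± 0.66, the second from 0.71 to 3.46 CPM over all tumours. Fli1, an ETS factor that blood cells share with endothelium, had the largest log2 fold change in size, -1.61 ± 0.69, but it stood at 62.1 CPM in NR2 and at 17.0 CPM or less elsewhere, and the value without NR2 was -0.50. Tal1, a factor of blood and endothelial precursors, went the same way, at -0.80 ± 0.76 with 6 tumours and 0.35 without NR2. Rasip1, which a vessel needs to open a lumen, and Myct1, an endothelial membrane protein gene, had log2 fold changes of -0.49 ± 0.37 and -0.84 ± 0.42.

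The members that NR2 raised most over the next highest tumour, among those with a log2 fold change, were Icam2 (4.32 times), Fli1 (3.64 times), S1pr1 (3.48 times), Tal1 (2.83 times) and Pecam1 (2.16 times). Each of these is also expressed by blood cells. The sum of 10 T cell genes was 20.5 to 41.0 CPM in the LR tumours, and 549 CPM in NR2, beside 38.8 and 64.7 CPM in NR3 and NR1. Among members more restricted to endothelium, NR2 stood at 2.03 times the next tumour for Clec14a and for Calcrl, 1.99 times for Cldn5, 1.72 times for Sox18, 1.71 times for Erg, 1.22 times for Tie1 and 1.04 times for Cdh5. The part of lymphocytes in these values was not tested.

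Tip cell and arterial genes did not move as one. Esm1 (chromosome 13, 113209659 to 113218098), which encodes the proteoglycan endocan that tip cells secrete, was read at 5.59, 8.90 and 7.13 CPM in LR1 to LR3 and at 2.36, 4.59 and 5.37 CPM in NR1 to NR3. All LR tumours lay above all NR tumours, LR1 only just above NR3. LR1 and NR3 held 94 counts each, so their order rests on the library scaling. Between the groups Esm1 differed by 0.81 ± 0.40 on the log2 scale (unadjusted p = 0.0855, adjusted p = 0.523, edgeR), and by 0.90 without NR2. Esm1 overlaps Gzmk, a granzyme gene of T cells, on the opposite strand, which was read at 0.30 to 1.25 CPM in the LR tumours and at 0.69 to 3.70 CPM in the NR tumours. Apln (chromosome X, 48025146 to 48034853), the apelin ligand, which tip cells but also other cell types secrete, was read at 28.2, 43.0 and 24.1 CPM in LR1 to LR3 and at 23.5, 15.5 and 18.4 CPM in NR1 to NR3. The lowest LR tumour lay just above the highest NR tumour. Apln differed by 0.73 ± 0.28 on the log2 scale (unadjusted p = 0.0378, adjusted p = 0.51, edgeR), and ran from 0.46 to 0.93 when single tumours were left out. Esm1 and Apln were the only members with every LR value above every NR value, a share no larger than that of all genes.

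Dll4 (chromosome 2, 119325784 to 119335962), the Notch ligand by which tip cells restrain their neighbours, was read at 5.53, 8.78 and 9.99 CPM in the LR tumours and at 9.73, 15.2 and 8.63 CPM in the NR tumours, a log2 fold change of -0.46 ± 0.35. Gja4 (chromosome 4, 127311421 to 127314039), the arterial gap junction protein connexin 37, was read at 1.43, 3.58 and 4.82 CPM in the LR tumours and at 3.78, 5.31 and 1.71 CPM in the NR tumours. The groups overlapped in both genes, and the log2 fold change of Gja4, -0.14 ± 0.60, was above 0 without LR1 (0.23) or without NR2 (0.25).

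**Figure D3:**
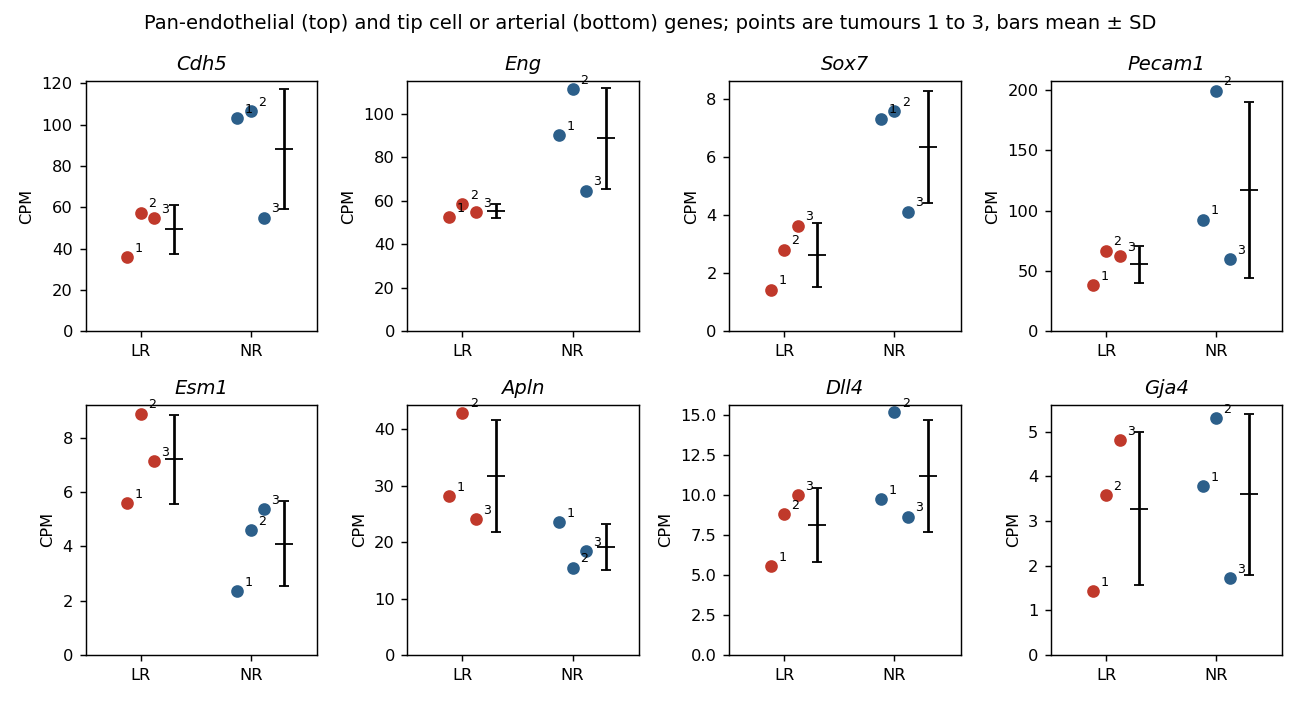
CPM of 4 pan-endothelial genes (top row) and of the 4 tip cell or arterial genes (bottom row) in LR and NR tumours, with each point a tumour, numbered, and the bar the mean ± SD of 3. LR points lie below all NR points for Eng and Sox7 and above them for Esm1 and Apln, while Cdh5, Pecam1, Dll4 and Gja4 overlap.

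Set against Cdh5 within the same tumour, a ratio chosen after the values were seen, Esm1 stood at 0.156, 0.155 and 0.13 of the Cdh5 count in LR1 to LR3 and at 0.0229, 0.0431 and 0.0977 in NR1 to NR3. The means were 0.147 ± 0.0147 in LR and 0.0545 ± 0.0387 in NR tumours (SD, n = 3 each), with an exact two-sided permutation p of 0.1, the smallest that 3 against 3 allow. Apln stood at 0.789, 0.75 and 0.44 of Cdh5 in LR1 to LR3 and at 0.228, 0.145 and 0.335 in NR1 to NR3, with the same exact p of 0.1. In all, 15 such ratios of 5 genes to 3 were computed, and none of them could have reached a p below 0.1. The ratios reuse the values given above, so they add no separate support. For Dll4, Gja4 and Angpt2 the ratio to Cdh5 overlapped between the groups, with exact permutation p values of 0.3, 0.2 and 0.4. With Pecam1 in place of Cdh5 the Esm1 and Apln ratios again did not overlap, but with Tie1 both did (exact permutation p = 0.2 each).

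Lymphatic genes varied more between tumours than between groups. Lyve1 (chromosome 7, 110850607 to 110863239), a hyaluronan receptor of lymphatic endothelium that some tissue macrophages also carry, was read at 20.03, 131 and 37.9 CPM in LR1 to LR3 and at 35.9, 203 and 27.9 CPM in NR1 to NR3. In each group 1 tumour stood far above the other two. The log2 fold change was -0.49 ± 0.95, and it was 0.98 without NR2 and -1.62 without LR2. Pdpn (chromosome 4, 143267431 to 143299564), podoplanin, a surface mucin of lymphatic endothelium, fibroblasts and some macrophages, was read at 17.5, 40.2 and 18.2 CPM in the LR tumours and at 34.8, 19.9 and 9.37 CPM in the NR tumours. Its log2 fold change of 0.25 ± 0.54 was -0.25 without LR2 and -0.11 without NR3.

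The high Lyve1 values came with different companions in LR2 and NR2. Mmrn1 (chromosome 6, 60924976 to 60989378), a member known from platelets and lymphatic endothelium, was read at 0.24 to 4.87 CPM in the LR tumours, and at 52.0 CPM in NR2, beside 0.37 and 0.51 CPM in NR1 and NR3. It was the 1 member left out of the test by the filter on low counts. Prox1, the defining transcription factor of lymphatic endothelium, was read at 0.54 to 1.31 CPM in the LR tumours and at 25.5 CPM in NR2. Reln, a secreted protein of lymphatic endothelium, and Sema3d, a guidance ligand, were read at 0.59 CPM or less and 2.48 CPM or less in all tumours but NR2, where they stood at 26.1 and 31.9 CPM. Stab2, a scavenger receptor of sinus endothelium, stood at 54.1 CPM in NR2 and at 0.84 CPM or less elsewhere. Flt4, the receptor of the lymphatic growth factor VEGF-C, was read at 5.11 to 6.09 CPM in the LR tumours and at 42.1 CPM in NR2. LR2, in contrast, held 0.54 CPM of Prox1 and 0.24 CPM of Mmrn1, but the most RNA of the macrophage receptors Mrc1 (503 CPM) and Cd163 (209 CPM), of which NR2 held 190.0 and 33.3 CPM. Mrc1 was on the macrophage list and also on the list of further lymphatic genes. NR2 was highest in 7 of the 9 genes of that lymphatic list that were present, beside 32.6% of all tested genes. Mrc1 was highest in LR2, and Foxc2 in LR1 (0.83 CPM). Nts stood at 2.33 CPM in NR2, 1.77 times the next tumour. The part of macrophages or of lymphatic vessels in Lyve1 was not tested.

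**Figure D4:**
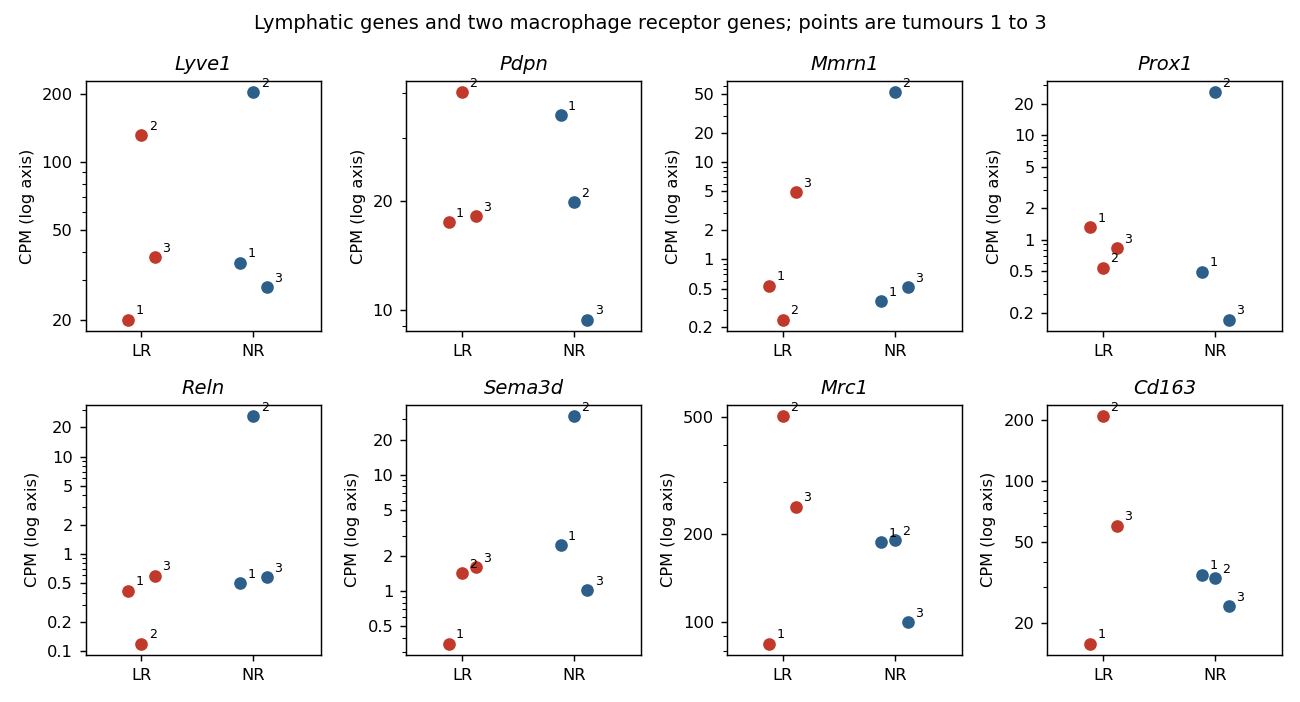
CPM on a log axis of the lymphatic members Lyve1 and Pdpn, of Mmrn1, of the lymphatic genes Prox1, Reln and Sema3d, and of the macrophage receptor genes Mrc1 and Cd163, with each point a numbered tumour of the LR or NR group. NR2 is highest for Lyve1, Mmrn1, Prox1, Reln and Sema3d, and LR2 is highest for Pdpn, Mrc1 and Cd163.

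Per length, in deposited FPKM averaged over the 6 tumours, Plvap (29.4 FPKM) and Lyve1 (28.9 FPKM) were the highest members, a difference far within the spread between tumours. Cdh5 (17.0 FPKM), S1pr1 (13.0 FPKM), Pdpn (10.6 FPKM), Eng (9.74 FPKM), Pecam1 (9.52 FPKM) and Apln (8.08 FPKM) followed, and each of these differed from the next by less than the larger SD of a group of 3 tumours. The lowest were Tal1 (0.21 FPKM) and Sox17 (0.17 FPKM).

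In a further list of 24 endothelial genes outside the members, 19 of 23 tested genes had a log2 fold change below 0, with a median of -0.62, or -0.27 without NR2. As with the members, their signs are not independent observations. By edgeR 0 of these genes passed the adjusted threshold. At an unadjusted p under 0.05, 2 were lower, 8.70% of those tested and near the 5.73% of all genes, and 0 were higher, beside 4.02%. The 2 were Nos3, the endothelial nitric oxide synthase, at 7.99 ± 2.55 CPM in LR and 18.6 ± 7.94 CPM in NR tumours, and Palmd at 3.95 ± 2.10 and 16.02 ± 10.4 CPM. The most abundant of that list, Podxl, a sialomucin that many epithelial tumours express too, had a log2 fold change of 0.19 ± 0.23. Of 14 further tip cell genes, 8 were above 0 and 6 below, with a median of 0.07. At an unadjusted p under 0.05, 1 of the 14 was higher and 2 were lower, beside 4.02% and 5.73% of all genes. Pgf, placental growth factor, had the smallest p of the 14. It was read at 7.37, 13.8 and 3.75 CPM in the LR tumours and at 2.60, 1.55 and 2.63 CPM in the NR tumours. Its log2 fold change was 1.87 ± 0.54 (unadjusted p = 0.0113, adjusted p = 0.51, edgeR). Trp53i11 went the other way (-2.13 ± 0.77) and stood at 85.1 CPM in NR2. The basement membrane collagens Col4a1 and Col4a2, the highest of the list, had log2 fold changes of -0.34 each. Of 8 tested arterial genes 6 were below 0 (median -0.28), and of 8 venous or activated ones 7 were (median -0.90). In both lists 0 genes were lower and 0 higher at an unadjusted p under 0.05 by edgeR. The venous or activated list summed to 123, 197 and 202 CPM in LR1 to LR3. Its sum was 221, 482 and 180 CPM in NR1 to NR3, with NR3 within the LR range.

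Cells around the vessels differed from tumour to tumour as well. Mural cell genes, which mark pericytes and smooth muscle, lay below 0 for 10 of the 11 that were tested (median -0.68), and their sum was 193, 280.4 and 299 CPM in LR1 to LR3 and 451, 552 and 169.7 CPM in NR1 to NR3. At an unadjusted p under 0.05, 2 of the 11 were lower and 0 higher, beside 5.73% and 4.02% of all genes. Cspg4, the pericyte proteoglycan NG2, averaged 8.87 ± 1.99 CPM in LR and 17.0 ± 5.26 CPM in NR tumours. Of 8 tested genes of fat and muscle capillaries, 8 were below 0 (median -1.14). At an unadjusted p under 0.05, 2 of them were lower and 0 higher, beside 5.73% and 4.02% of all genes. The list summed to 149, 1110.1 and 669.9 CPM in LR1 to LR3 and to 2397, 2212 and 675 CPM in NR1 to NR3. Fabp4, Lpl and Cd36 make up most of that sum and are fat cell genes too. The tumours with most and least pan-endothelial RNA were thus also those with much and least fat RNA. Fat cell genes were at 57.3, 1333 and 963 CPM in LR1 to LR3 and at 4055, 3411 and 876 CPM in NR1 to NR3, and their part in the vessel values was not tested.

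Among other host cells, macrophage genes had a median log2 fold change of 0.07 (7 of 10 above 0), though LR1 was the lowest tumour in 10 of 10, and fibroblast genes one of 0.07 (6 of 10 above 0), with Col1a1 and Col1a2 at 0.70 and 0.82. Of 9 platelet genes in the table, which bear on Vwf, Pecam1 and Mmrn1, 5 were tested, with a median of 0.04. The 9 genes summed to 33.3, 94.9 and 42.3 CPM in LR1 to LR3 and 30.3, 63.2 and 16.7 CPM in NR1 to NR3. Pf4 and the surface gene Itga2b were the 2 highest by mean CPM. The platelet chemokine Pf4 averaged 32.5 ± 24.1 CPM in LR and 9.49 ± 4.52 CPM in NR tumours. Of other platelet surface genes, Gp1ba and Gp6 stood at 0.36 CPM or less in every tumour. Erythroid genes, which bear on Tal1, were above 0 in 6 of 6 tested members (median 1.41), while their regulators Gata1 and Klf1 stood at 0.89 CPM or less. T cell genes were below 0 in 10 of 10 (median -3.40), B and plasma cell genes in 5 of 5 tested (median -5.78), skeletal muscle genes in 9 of 9 tested (median -1.91) and fat genes in 10 of 10 (median -1.72), and of the further lymphatic genes 5 of 6 tested were (median -1.40). Single tumours weigh on these medians: NR2 alone held high sums of T cell genes (549 CPM) and of B and plasma cell genes (2665 CPM). The muscle sum was highest in NR1 (1345 CPM). At an unadjusted p under 0.05, 8 of 10 T cell, 5 of 5 B and plasma cell, 1 of 10 fat and 1 of 6 further lymphatic genes were lower, beside 5.73% of all genes. Higher were 3 of 6 erythroid and 1 of 5 platelet genes, beside 4.02%.

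**Figure D5:**
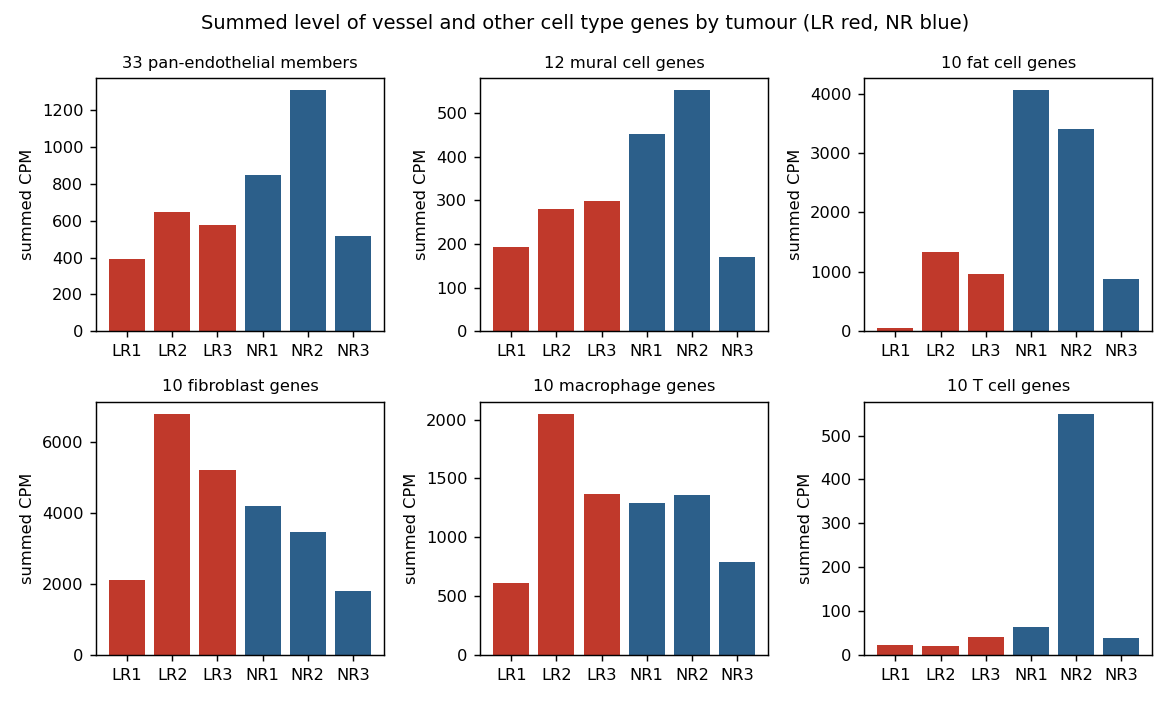
Summed CPM per tumour of the pan-endothelial members and of genes of mural cells, fat cells, fibroblasts, macrophages and T cells, LR in red and NR in blue. NR1 and NR2 are high for vessel, mural and fat genes, LR1 is lowest for vessel, fat and macrophage genes, and NR2 alone is high for T cell genes.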

How the data were processed

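RNA of 6 tumours was sequenced as libraries of the Vazyme VAHTS Universal V6 kit from TRIzol extracts, as the labels' protocols have it. HISAT2, StringTie and edgeR appear in the submitters' processing notes, with neither version nor role. No source used here gives the build, annotation or strand. The authors deposited whole-number read counts per gene, not normalized, and FPKM, which over 5442 genes with at least 500 counts equal the counts up to 1 factor per gene and tumour (relative deviation at most 1.7e-06). Of 20482 identifiers, 20355 were found in GENCODE M21 (GRCm38), including all 39 members.

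Counts were filtered with filterByExpr, scaled by TMM and tested with edgeR 4.0.16 (R 4.3.3), LR against NR with no block. The SE is the size of the log2 fold change over the root of F. The test was checked on counts simulated from its own fitted dispersions. Such counts cannot show how the test behaves where single tumours differ in cell content. DESeq2 1.42.0, limma 3.58.1 and other scalings were alternatives. Members and lists were chosen with earlier results of these data known. Per-tumour values are given for members with an unadjusted p under 0.05 or groups that do not overlap, for all tip cell, arterial and lymphatic members, and for Pecam1, Tek, Tie1, Angpt1, Angpt2, Erg and Vwf. From other lists, the 2 genes with the smallest p and the 2 highest were eligible. Prox1, Reln, Stab2, Flt4, Foxc2, Nts, Gp1ba, Gp6, Gata1, Klf1 and the members outside that rule were named after their values were seen. No pair of libraries agreed within sampling noise (chi-square per gene at least 38.5). The labels do not name the mice of single tumours, so the p-values measure the spread between these samples.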

Additional observations from a re-analysis of the deposited data

How the results depend on the processing

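No member passed an adjusted p of 0.05 under any of the 15 alternatives. DESeq2 called 117 genes over the whole table, where the edgeR test called 0. The number of members lower at an unadjusted p under 0.05 was 7 by DESeq2 and 1 to 13 when single tumours were left out, against 3. Over all genes, in either direction, DESeq2 counted 1742 of 14392, against 1404 by edgeR. With single tumours left out, that count ran from 631 to 2666. The number of members higher was 2 on log2(FPKM + 1) and on log2(FPKM + 0.1), 0 with the replicate block and 0 to 1 when single tumours were left out, against 1. The count over all genes was 1343 and 1375 on the FPKM scales and 1120 with the block. The replicate numbers showed no clear pairing: the deviations of same-numbered tumours correlated at 0.05, 0.31 and -0.16. LR1 correlated best with NR3, and LR2 with NR2. Deviations from a mean of 3 tumours depend on each other, so this check cannot exclude a pairing. With the block the pan-endothelial median was -0.56, and the members lower were again 3, of which Eng was shared. Leaving out single tumours moved the pan-endothelial median between -0.94 and -0.29, the tip cell or arterial median between 0.12 and 0.52, the lymphatic one between -0.93 and 0.59, and the number of members below 0 between 26 and 37. For the 16 members given per tumour, log2 fold changes changed sign only when a tumour was left out: Gja4 ran from -0.52 to 0.25, Lyve1 from -1.62 to 0.98, Pdpn from -0.25 to 0.81 and Vwf from -0.79 to 0.22. The other 234 of 240 values of these 16 kept their direction and stayed short of the threshold. Of the members outside these 16, Esam was above 0 under upper quartile and library size scaling and on both FPKM scales, Egfl7 under library size scaling and on both FPKM scales, both without NR2, and Esam and Sox17 without LR1. S1pr1, Clec14a, Tal1 and Sox17 were also above 0 without NR2. The cause of the changes was not tested.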
